A study of Caenorhabditis elegans with 12 samples.

Results

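The libraries described here are the 3 from worms labelled prp-19 RNAi and the 3 that had atp-2 RNAi as well, 6 of the 12 in the series, and they were taken by their column names in the deposited table of read counts. All 12 were made from polyA RNA of whole Caenorhabditis elegans of the strain glp-4(bn2) on day 1 of adulthood, so every group carries this mutation, under which the germline fails to form at the restrictive temperature. The worms grew on bacteria for prp-19 RNAi or for control RNAi (the empty vector L4440) and then received atp-2 RNAi or no treatment. The sources used here do not give the growth temperature or the numbers of worms. The labels do not say whether the 3 replicates of a group came from separate cultures. The p-values therefore measure the spread between replicate libraries, estimated in a fit over all 12 libraries. The control pair, 3 libraries without and 3 with atp-2 RNAi, serves to show where the response differed between partners. Its libraries also enter that estimate of spread.

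As background, atp-2 encodes the beta subunit of the mitochondrial ATP synthase, the enzyme that makes ATP from the proton gradient. Worms with damaged mitochondria switch on the mitochondrial unfolded protein response, in which the transcription factor ATFS-1 raises chaperones such as hsp-6 and hsp-60, import components, proteases and metabolic genes. prp-19 encodes a core factor of the spliceosome, the machine that removes introns from pre-mRNA.

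Levels are CPM, read counts divided by library size (per 1e6 reads) after TMM scaling, and they are not divided by transcript length. Changes are log2 fold changes of libraries with atp-2 RNAi over libraries without it, from the quasi-likelihood test of edgeR, with a standard error (SE). A gene was called, and is said to have risen or fallen, at a Benjamini-Hochberg adjusted p under 0.05 over all 12850 genes tested. Adjusted p-values are those of this edgeR test, and gene positions are those of RefSeq for WBcel235. The totals of the 6 libraries lay between 6786918 and 8700176 counts.

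The targeted genes came first. The mRNA of atp-2 (chromosome III, 5228417 to 5230536) stood at 895, 973 and 1178 CPM without atp-2 RNAi and at 513, 499 and 502 CPM with it. The groups did not overlap, with a log2 fold change of -1.01 (SE 0.0857, edgeR adjusted p = 2.01e-07). In the control libraries the reduction was -2.60, and the difference between the reductions was called (1.59, adjusted p = 3.33e-08), so less atp-2 mRNA was lost on prp-19 bacteria. The mRNA of prp-19 (chromosome III, 5169933 to 5172045) stood at 84.2, 38.0 and 41.0 CPM without atp-2 RNAi and at 40.9, 29.2 and 18.15 CPM with it, with overlapping ranges and no call (-0.89, SE 0.354, adjusted p = 0.169). The 6 control libraries ran from 24.3 to 28.1 CPM, below the 3 libraries labelled prp-19 RNAi alone, so in those 3 prp-19 mRNA went against the label. The libraries with both RNAi lay on both sides of the control range. Whether prp-19 mRNA differed from the control libraries was not tested, and the groups are named by their labels.

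Replicate 3 labelled prp-19 RNAi stood apart from its partners. Over the 5224 genes with at least 20 CPM, its median absolute log2 difference was 0.199 from replicate 1 and 0.161 from replicate 2, but 0.1325, 0.147 and 0.130 from the 3 libraries with atp-2 RNAi. Replicates 1 and 2 differed from each other by 0.125. The 3 libraries with atp-2 RNAi differed from each other by 0.0846 to 0.0959, so the wide spread lay in the group without atp-2 RNAi.

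**Figure D1:**
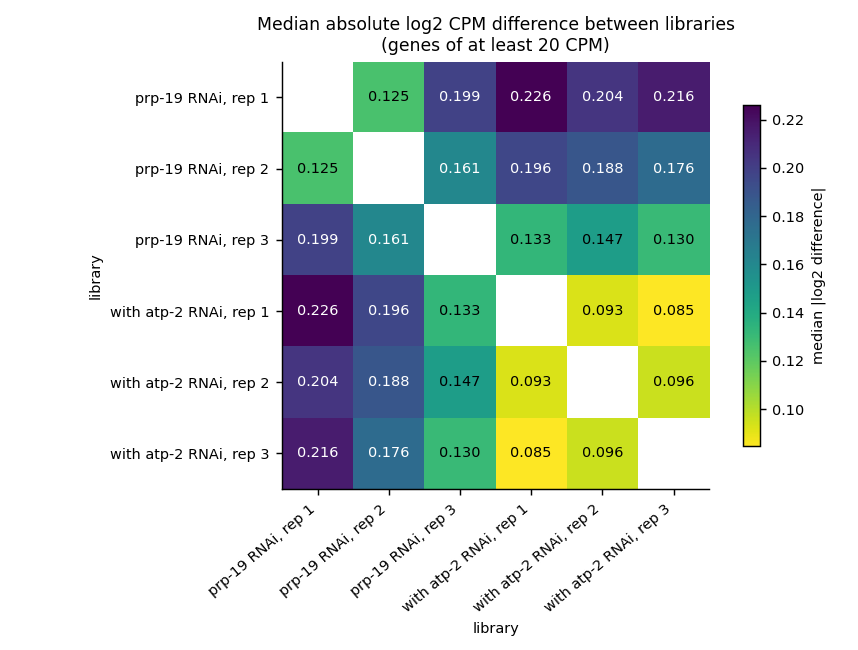
Each square gives the median absolute log2 CPM difference between 2 of the 6 libraries over genes of at least 20 CPM, with darker squares for larger differences. Replicate 3 labelled prp-19 RNAi is closer to the libraries with atp-2 RNAi (0.130 to 0.147) than to its own partners (0.161 and 0.199).

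The same library was nearer the mean of the other group in 59.7% of these genes, against 35.1% and 33.3% for replicates 1 and 2 and 26.2% to 32.2% for the libraries with atp-2 RNAi. It stood at least 2-fold above or below both of its partners in 63 genes, where replicates 1 and 2 did so in 3 and 4 genes. In 59 of the 63 genes (93.7%) the mean of the libraries with atp-2 RNAi lay on the same side of replicates 1 and 2 as replicate 3 did. Of the 63 genes 4 were called, and of all 5224 genes 808 were. Genes picked for a wide difference within a group are less likely to be called, so the 4 are given as a description. The SD of log2 CPM over 3 libraries exceeded 0.5 in 171 of the 5224 genes without atp-2 RNAi and in 7 with it. Over all genes tested, the median SD was 0.184 without and 0.128 with atp-2 RNAi, and 0.155 and 0.120 in the 2 control groups.

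Some tissue-linked values moved with this spread. The vitellogenins, yolk proteins made in the intestine, took 6.85%, 10.39% and 17.65% of all counts in the libraries without atp-2 RNAi and 12.41%, 12.27% and 14.01% in those with it. Exact 95% binomial intervals, which cover counting error only, were 6.831% to 6.869%, 10.37% to 10.41% and 17.63% to 17.68% for the first 3 and 12.38% to 12.43%, 12.24% to 12.29% and 13.99% to 14.03% for the others. Reads without molecular identifiers are not independent molecules. The 8 intestine markers summed to 5164, 5718 and 7729 CPM without atp-2 RNAi and to 7055, 7065 and 6973 CPM with it. Of the 8 markers 2 rose, against 5.06% of all genes tested. Replicate 3 was the highest of the 6 libraries in both measures, and the part of yolk or intestinal RNA in the results below was not tested. In whole worms, fewer cells of a type and less RNA per cell cannot be told apart.

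Body wall muscle summed to 5770 to 7043 CPM without and 6285 to 8372 CPM with atp-2 RNAi, neurons to 642.1 to 796.5 and 646 to 727.8 CPM with 1 of 10 markers higher, and coelomocytes to 80.35 to 82.76 and 75.94 to 83.55 CPM. Of the hypodermis markers 2 of 8 rose and 1 fell, and its sums were 2061 to 2459 and 2545 to 2632 CPM, without overlap. The 2 that rose were dpy-7, at means of 1.04 and 3.15 CPM, and bli-1. Their calls held in 3 and 2 of the 6 fits that left out 1 of these libraries. Over all genes tested 9.77% were called, and 24.5% had groups that did not overlap. The 10 germline and oocyte markers, of which 9 passed the filter, summed to 198.2 to 235.3 and 182.5 to 204.4 CPM with none called, and of the sperm markers 2 passed the filter and 4 had no read in the 6 libraries. Pharynx markers summed to 355.1 to 373.9 and 368.9 to 495.2 CPM, with none called.

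Against this spread, atp-2 RNAi still moved 1256 of 12850 genes in worms labelled prp-19 RNAi (9.77%), 650 higher (5.06%) and 606 lower (4.72%). With library totals in place of TMM factors the split was 356 higher and 591 lower, with the median of all genes at -0.08. With the control libraries left out of the fit, 547 of 12479 genes were called (4.38%). The control pair had 4383 called genes (34.1%), and the difference between the responses was called for 2475 genes (19.3%). Of the 1256 genes, 64.3% were also called in the control libraries, which share no library with this comparison, and these made up 18.4% of the control calls. Of these 807 shared genes, 700 had the same direction in both. Groups of 3 that did not overlap were found in 3149 genes (24.5%), and 1199 of the 1256 called genes were among them.

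Single libraries weighed heavily. Without replicate 3 labelled prp-19 RNAi, 2887 of 13119 genes were called (22%), and 1223 of the 1256 genes were among them. Without replicate 1 or 2 of that group 909 and 745 genes were called, and without replicate 1, 2 or 3 of those with atp-2 RNAi 696, 760 and 808. A core of 528 genes (4.11%), 271 higher and 257 lower, was called with all libraries and in each of these 6 fits, with a median absolute log2 fold change of 0.64. Of the 1256 genes, 9 were called in none of the 6 fits. Of the 117 called genes chosen for naming, 84 were called in all 6 fits and 60 under every alternative tried. With the 6 libraries fitted alone, the calls of 36 named genes were lost. Among them were C23H5.8 (adjusted p = 0.0733), cpt-3 (adjusted p = 0.0506), ech-6 (adjusted p = 0.0691) and pals-14 (adjusted p = 0.0581). The calls for C23H5.8, cpt-3, ech-6 and pals-14 held in all other alternatives.

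**Figure D2:**
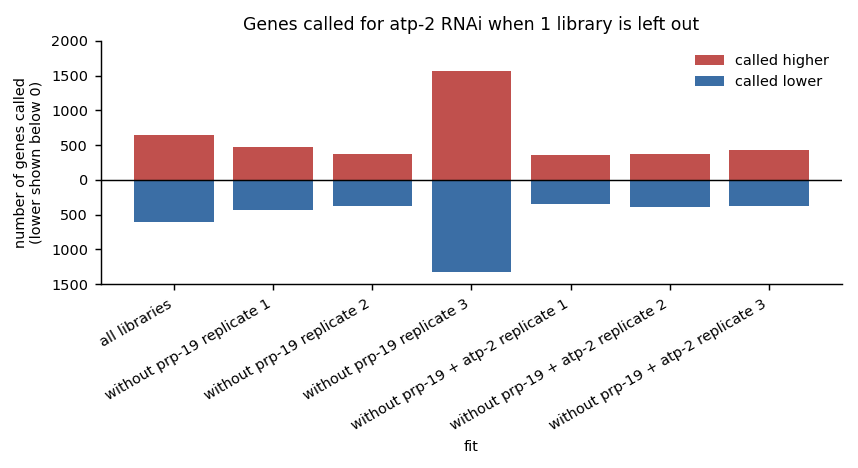
Bars give the number of genes called higher (above 0) and lower (below 0) for atp-2 RNAi among worms labelled prp-19 RNAi, with all libraries and without 1 of the 6 compared. Leaving out replicate 3 of the libraries without atp-2 RNAi raises the calls to 1559 higher and 1328 lower, and leaving out any other library lowers them.

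The list counts that follow, where no other comparison is named, are read against those shares of all genes, 5.06% higher and 4.72% lower. Counts from other comparisons have other shares. In the control libraries 2182 of the 12850 genes were higher and 2201 lower. The difference was called higher for 1300 and lower for 1175. Without replicate 3 labelled prp-19 RNAi, 1559 of 13119 genes were higher and 1328 lower (22% in all). The lists were chosen with earlier results of these data known. The highest shares of risen members were found in lists of mitochondrial parts: ATP synthase subunits, mitochondrial chaperones and proteases, respiratory complexes and the citric acid cycle. No member of 6 lists was called: regulators of the mitochondrial unfolded protein response (20 measured), hypoxia and hydrogen sulfide response (14), vitellogenins (6), splicing factors (66), mitochondrial fission, fusion and mitophagy (13) and muscle sarcomere (34). In that order, edgeR gave an unadjusted p under 0.05 for 4, 1, 0, 9, 0 and 2 members, DESeq2 called 1, 0, 0, 0, 0 and 1, and voom with quality weights called 3, 0, 0, 3, 0 and 0.

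**Figure D3:**
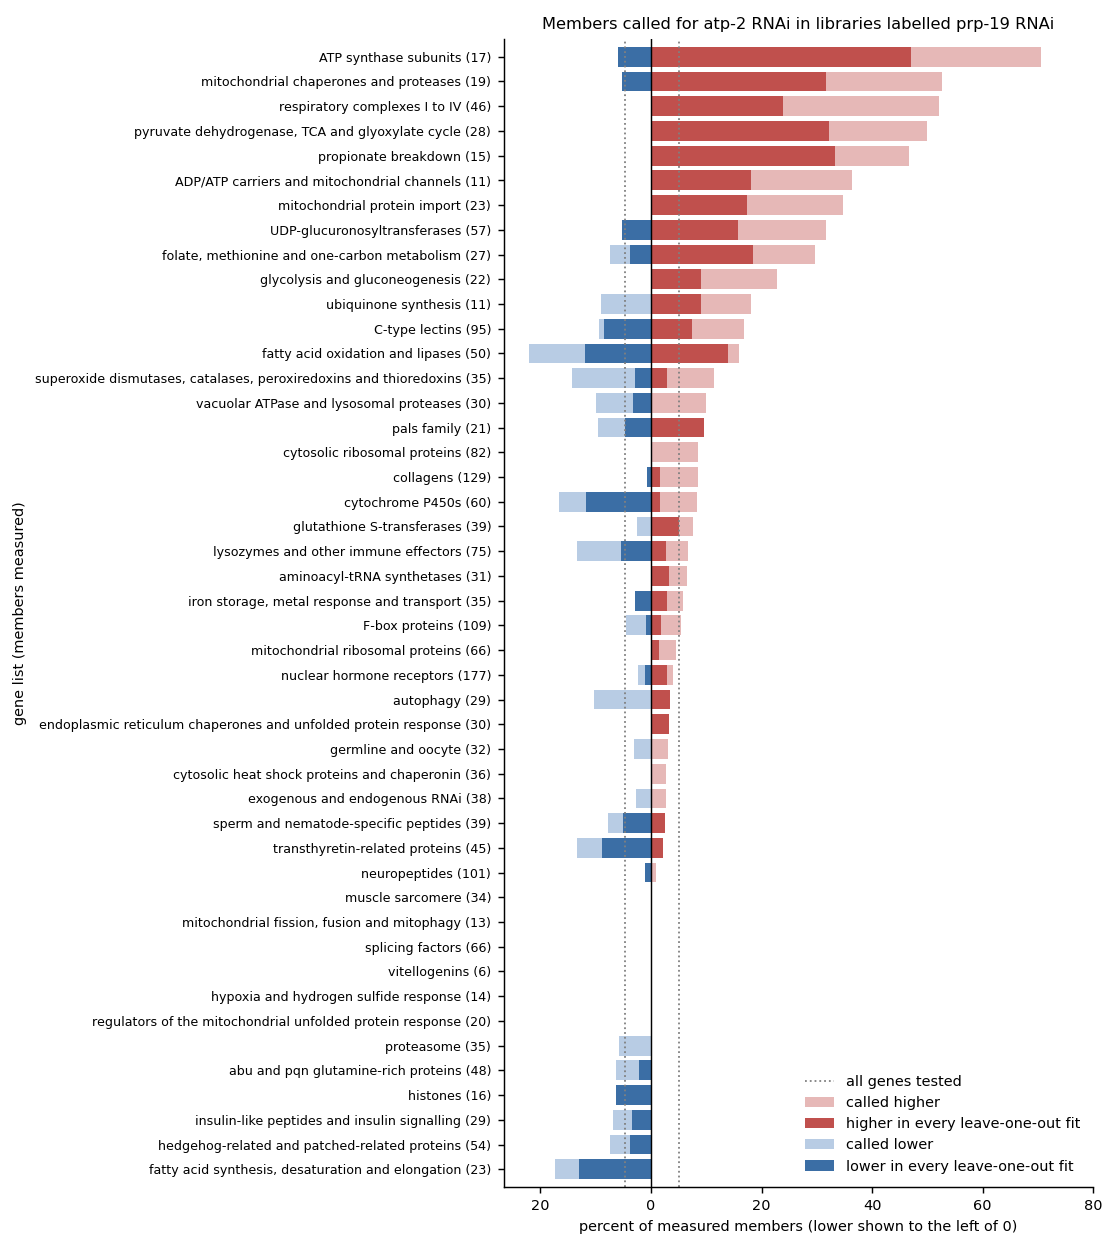
For each of 46 gene lists, bars give the percentage of measured members called higher (right) or lower (left), with the dark part for members called in all 6 leave-one-out fits and dotted lines for all genes tested. Some mitochondrial lists lie at the top, led by ATP synthase subunits with 12 of 17 members higher and 1, atp-2 itself, lower. Others lie far below, such as mitochondrial ribosomal proteins (3 of 66 higher) and fission, fusion and mitophagy (0 of 13).

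Mitochondrial chaperones and proteases, which fold and clear proteins inside the organelle, rose in 10 of 19 measured members and fell in 1, with a median log2 fold change of 0.34 against -0.00308 over all genes. hsp-60, the chaperonin, stood at 39.1, 39.1 and 59.5 CPM without and at 96.3, 95.7 and 99.1 CPM with atp-2 RNAi. The groups did not overlap, and replicate 3 was the highest of the 3 libraries without atp-2 RNAi (log2 fold change 1.08, SE 0.121, adjusted p = 1.86e-05). Its partner chaperonin Y22D7AL.10, the worm Hsp10, lies beside it on chromosome III (1617151 to 1618929, with hsp-60 at 1619742 to 1625803). It stood at 23.9, 20.8 and 22.8 CPM without and at 31.7, 39.8 and 36.1 CPM with atp-2 RNAi (0.67, SE 0.093, adjusted p = 8.25e-05).

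hsp-6, the mitochondrial Hsp70, stood at 141.9, 161 and 180 CPM without and at 275, 262 and 265 CPM with atp-2 RNAi (0.73, adjusted p = 9.85e-06). The J-domain co-chaperone dnj-10 rose by 0.62, from 19.4, 14.4 and 15.4 to 25.6, 26.9 and 23.1 CPM. The groups did not overlap for either gene, and both held in all 6 leave-one-out fits. The inner membrane scaffold gene stl-1 (0.64) and the protease gene ppgn-1 (0.48) also held in all 6, as did the fall of D2030.2 (-0.47), a subunit gene of the mitochondrial ClpX family. The prohibitins phb-1 (0.26) and phb-2 (0.34) and the proteases clpp-1 (0.47) and spg-7 (0.36) were called with all libraries but held in 2, 5, 3 and 4 of the 6 fits. The protease lonp-1 was not called (0.20, adjusted p = 0.139), nor was the regulator atfs-1 (-0.04, adjusted p = 0.873). For 13 of the 19 members the log2 fold change was lower than in the control libraries by the test of the difference, and for 2 it was higher.

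Import genes rose in 8 of 23 measured members, with none lower and a median of 0.25. timm-23, the channel of the inner membrane translocase, stood at 42.9, 38.7 and 43.6 CPM without and at 71.3, 77.4 and 73.1 CPM with atp-2 RNAi. The groups were well apart, with replicate 3 among its partners (0.83, SE 0.0765, adjusted p = 7.13e-07). The outer membrane receptor gene tomm-70, whose span overlaps sma-2, rose by 0.45 (adjusted p = 0.00176), from 39.9, 40.6 and 35.5 to 52.2, 55.4 and 51.4 CPM. mppa-1, a subunit of the processing peptidase whose span overlaps tln-1, rose by 0.71 (adjusted p = 0.0118), but was not called without replicate 2 labelled prp-19 RNAi (adjusted p = 0.0853), or without replicate 1 of those with atp-2 RNAi (adjusted p = 0.082). Of the 23, 21 rose in the control libraries.

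ATP synthase subunits rose in 12 of 17 members while atp-2 fell, and 8 of the 12 held in all 6 leave-one-out fits. atp-1, the alpha subunit that forms the catalytic ring with the product of atp-2, stood at 642, 804 and 1024 CPM without and at 1352, 1322 and 1391 CPM with atp-2 RNAi. Replicate 3 was again the closest to the other group, without overlap (0.72, SE 0.115, adjusted p = 0.00083). Y69A2AR.18, the gamma subunit, stood at 356, 324 and 359 CPM without and at 518, 499 and 500 CPM with atp-2 RNAi (0.55, adjusted p = 1.73e-05). The other members that rose lay between 0.27 and 0.43.

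Genes of respiratory complexes I to IV, which build the proton gradient, rose in 24 of 46 members with none lower, and 11 of the 24 held in all 6 fits. sdha-2, a subunit of succinate dehydrogenase, stood at 24.9, 26.5 and 28.3 CPM without and at 41.2, 32.6 and 37.7 CPM with atp-2 RNAi (0.49, adjusted p = 0.00275). ucr-2.1, a core subunit of complex III, rose by 0.46 (adjusted p = 0.00176), from 141, 164 and 192 to 225, 228 and 232 CPM, and cox-4 of complex IV rose by 0.45 (adjusted p = 0.0012), from 225, 223 and 267 to 305, 351 and 318 CPM. Groups did not overlap for these 3 genes. In the control libraries 41 of the 46 rose, and the log2 fold change was lower on prp-19 bacteria for 27 by the test of the difference and higher for 0.

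Carriers and cofactors followed. ADP/ATP carriers and mitochondrial channels rose in 4 of 11, led by the ADP/ATP carrier ant-1.1, at 2116, 2264 and 2799 CPM without and 3184, 3385 and 3279 CPM with atp-2 RNAi (0.46, adjusted p = 0.00191). The outer membrane channel gene vdac-1, which overlaps glt-6, rose by 0.30 (adjusted p = 0.00715), and the mitoferrin gene mfn-1 by 0.35, a call lost without replicate 1 or 3 of the libraries with atp-2 RNAi (adjusted p = 0.115 and 0.11). In the list written for ubiquinone synthesis, sur-5 rose by 0.60 (adjusted p = 0.00171), from 194, 205 and 283 to 366, 336 and 334 CPM. Whether sur-5 takes part in that synthesis was not tested. In that list coq-5 also rose (0.37) and kmo-1 fell (-0.31), but neither held in all 6 fits.

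Of 66 mitochondrial ribosomal protein genes, 3 rose on prp-19 bacteria, near the share over all genes, and 56 rose in the control libraries. The test of the difference was called lower for 31 of them. mrps-11, whose span overlaps inx-11, stood at 14.2, 15.5 and 16.02 CPM without and at 20.01, 21.9 and 19.6 CPM with atp-2 RNAi (0.42, adjusted p = 0.00778), and was the 1 of the 3 to hold in all 6 fits. mrps-14 (0.44) and mrpl-45 (0.43) held in 2 of the 6. Without replicate 3 labelled prp-19 RNAi, 12 of the 66 rose.

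Cytosolic ribosomal protein genes rose in 7 of 82 members and in 0 of them in all 6 leave-one-out fits. The count was 1 without replicate 1, 0 without replicate 2 and 47 without replicate 3 labelled prp-19 RNAi. rpl-4 stood at 1161, 1359 and 1675 CPM without and at 1796, 1750 and 1782 CPM with atp-2 RNAi, so replicate 3 lay next to the other group (0.35, adjusted p = 0.0256; 0.51 without that library). rpl-5, whose span overlaps bcs-1, and rpl-31 had the same order, at 0.34 and 0.32, and each was called in 1 of the 6 fits, the one without replicate 3. On control bacteria 3 members rose and 20 fell, and the test of the difference was called higher for 32 and lower for 2.

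Of 31 aminoacyl-tRNA synthetase genes, which charge tRNAs, 2 rose. lars-1, for leucine, stood at 184, 190 and 182 CPM without and at 264, 259 and 248 CPM with atp-2 RNAi (0.47, adjusted p = 0.000437), against 1.68 in the control libraries, with a called difference of -1.203. tars-1, for threonine, whose span overlaps kel-1, was at 132, 129 and 138 and at 167, 158 and 160 CPM (0.28, adjusted p = 0.0178), a call lost without replicate 2 labelled prp-19 RNAi (adjusted p = 0.0612) and without replicate 1 or 3 of those with atp-2 RNAi (adjusted p = 0.0863 and 0.0501).

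The pyruvate dehydrogenase and citric acid cycle list, which feeds electrons to the respiratory chain, rose in 14 of 28 members with none lower, 9 of them in all 6 fits. cts-1, citrate synthase, stood at 284, 331 and 337 CPM without and at 792, 790 and 766 CPM with atp-2 RNAi. This gene, whose span overlaps best-18, had tight and distant groups (1.302, SE 0.0739, adjusted p = 7.48e-10), and its change was larger than the 0.97 of the control libraries by the test of the difference (0.33, adjusted p = 0.0281). With library totals in place of TMM factors that difference was -0.01 and not called. mpc-1, a subunit of the mitochondrial pyruvate carrier that overlaps R07E5.11, rose by 0.75 (adjusted p = 1.69e-05), from 24.6, 23.8 and 27.5 to 42.0, 45.5 and 39.9 CPM. aco-1, the cytosolic aconitase, rose by 0.71 (adjusted p = 0.000365), from 155, 174 and 231 to 313, 310 and 298 CPM, and malate dehydrogenase mdh-2 and the NADP-linked isocitrate dehydrogenase idh-1 rose by 0.68 and 0.58.

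Glycolysis genes rose in 5 of 22 members. hxk-1, a hexokinase, stood at 29.1, 31.3 and 26.2 CPM without and at 42.0, 45.5 and 40.5 CPM with atp-2 RNAi (0.56, SE 0.0899, adjusted p = 0.000425). In the control libraries it fell by 0.43, and the difference of 0.99 was called. ldh-1, lactate dehydrogenase, rose by 0.55 (adjusted p = 9.53e-05), from 93.2, 97.8 and 94.0 to 133, 139 and 144 CPM. Enolase, enol-1, rose by 0.26, a call lost without replicate 3 of the libraries with atp-2 RNAi (adjusted p = 0.0613).

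**Figure D4:**
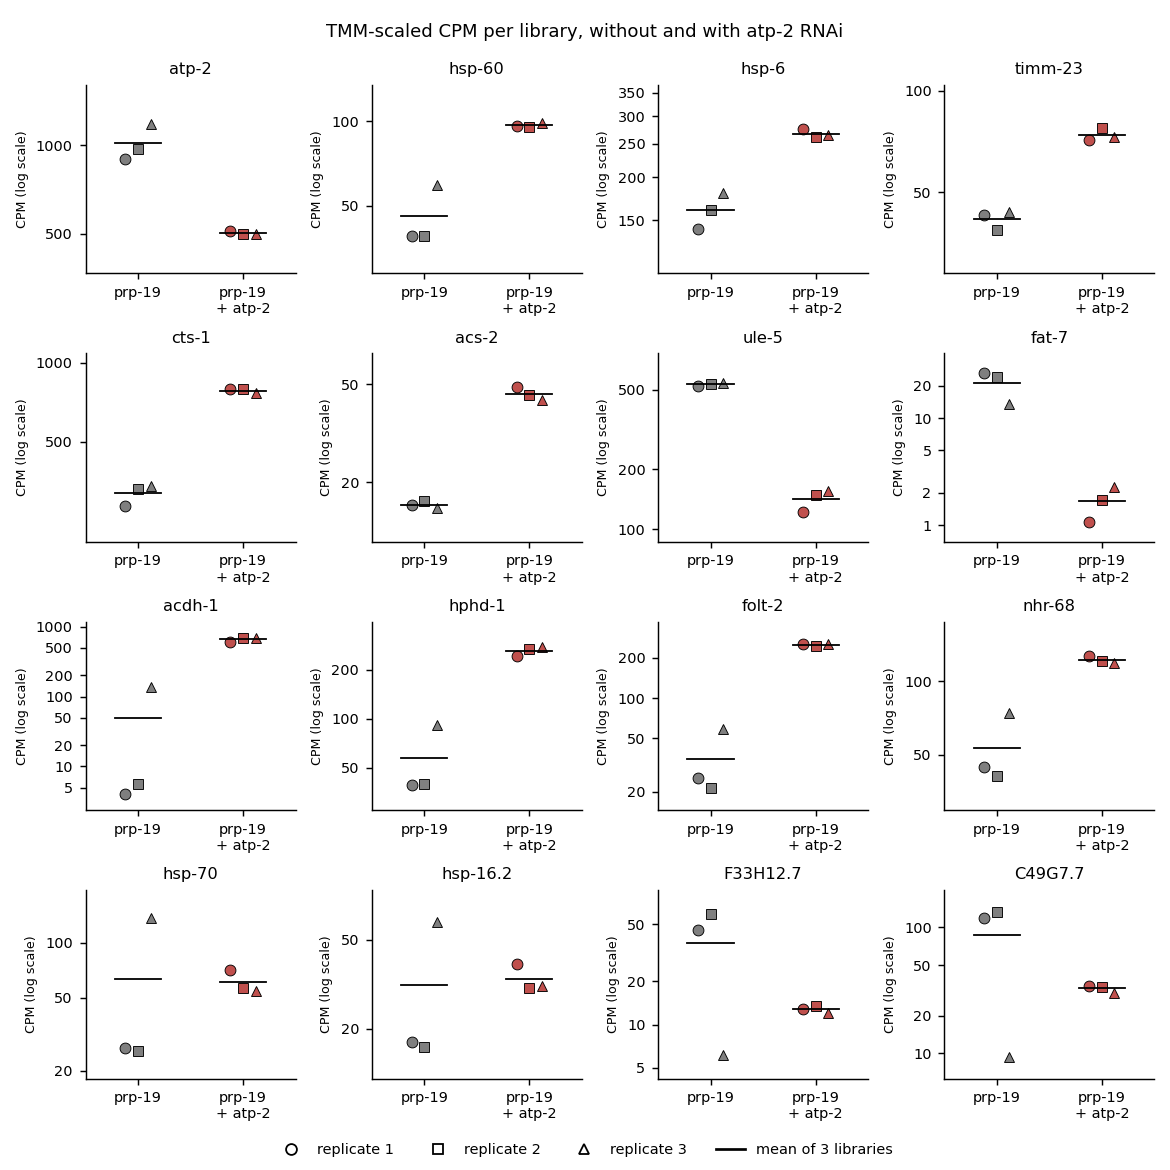
TMM-scaled CPM on log axes in each of the 6 libraries for 16 genes, without (grey) and with (red) atp-2 RNAi, with replicates 1, 2 and 3 as circles, squares and triangles and a line at the mean of 3. Replicate 3 without atp-2 RNAi lies among its partners for timm-23, cts-1, acs-2 and ule-5, between the groups for acdh-1, hphd-1, folt-2 and nhr-68, and outside both for hsp-70, hsp-16.2, F33H12.7 and C49G7.7.

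Genes of propionate breakdown formed the next group, with 7 of 15 higher and 0 lower, and 5 of the 7 held in all 6 fits. As background, propionate from branched-chain amino acids and odd-chain fatty acids is degraded by a pathway that needs vitamin B12, and when B12 is short by a shunt that runs through acdh-1, ech-6, hach-1, hphd-1 and alh-8 under the nuclear hormone receptor genes nhr-10 and nhr-68. hphd-1, a dehydrogenase (chromosome II, 12994362 to 12996344), stood at 39.2, 39.5 and 91.9 CPM without and at 241, 268 and 274 CPM with atp-2 RNAi (2.21, SE 0.296, adjusted p = 0.00202). The enoyl-CoA hydratase ech-6 stood at 97.3, 86.8 and 186 CPM without and at 314, 334 and 324 CPM with atp-2 RNAi (1.397, adjusted p = 0.00688). nhr-68 stood at 44.4, 40.7 and 74.2 CPM without and at 127, 121 and 119.04 CPM with atp-2 RNAi (1.21, adjusted p = 0.000931). In all 3 genes replicate 3 lay between its partners and the other group, and no groups overlapped.

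The hydrolase hach-1 (1.03) and nhr-114 (0.80) also rose in all 6 fits, and alh-8 (0.53) and mmaa-1 (0.36) in 4 and 3 of them. Of these, mmaa-1 belongs to the B12-dependent route. Of the same route, pcca-1 at 0.07 (adjusted p = 0.569), pccb-1 at 0.14 (adjusted p = 0.229) and mmcm-1 at 0.04 (adjusted p = 0.783) were not called. Nor were mce-1 at 0.13 (adjusted p = 0.396) and mmab-1 at 0.01 (adjusted p = 0.972). Without replicate 3 labelled prp-19 RNAi, pccb-1 (0.17, adjusted p = 0.0473) and mce-1 (0.24, adjusted p = 0.0303) were called. In that fit pcca-1, mmcm-1 and mmab-1 were not. acdh-1, the first enzyme of the shunt, had the widest spread of all genes of at least 20 CPM. It stood at 3.99, 5.68 and 139 CPM without and at 593, 695 and 676 CPM with atp-2 RNAi. The groups did not overlap, yet the log2 fold change of 3.75 had an SE of 1.05 and was not called (adjusted p = 0.0631). Without replicate 3 it was 7.08 (adjusted p = 1.81e-08).

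Folate, methionine and glycine genes rose in 8 of 27 members and fell in 2. folt-2, of the folate transporter family (chromosome V, 2872465 to 2875600), stood at 25.4, 21.4 and 58.9 CPM without and at 251, 246 and 252 CPM with atp-2 RNAi. This was the highest change among called genes of at least 5 CPM without overlap (2.84, SE 0.321, adjusted p = 0.000819), and replicate 3 again lay between the groups. folt-1, a folate transporter that overlaps C06H2.7, rose by 0.69 (adjusted p = 0.000991), from 9.75, 8.79 and 10.03 to 14.4, 14.2 and 17.1 CPM. sams-1, which makes S-adenosylmethionine, stood at 106, 123 and 124 CPM without and at 170, 172 and 193 CPM with atp-2 RNAi (0.60, SE 0.0769, adjusted p = 3.72e-05). In the control libraries these 2 genes were not called, at 0.19 and 0.08, and the differences of 0.49 and 0.52 were. mthf-1, methylenetetrahydrofolate reductase, rose by 0.43 and the glycine cleavage gene gldc-1 by 0.58, while the purine enzyme gene atic-1 fell by 0.36.

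In the list of synthesis, desaturation and elongation of fatty acids 4 of 23 fell and 0 rose. Without replicate 3 labelled prp-19 RNAi, 8 rose and 4 fell, so the balance of the list turned. fat-7, a delta-9 desaturase (chromosome V, 7151353 to 7153146), stood at 26.3, 24.01 and 13.4 CPM without and at 1.07, 1.70 and 2.27 CPM with atp-2 RNAi. It had the lowest change among called genes of at least 5 CPM without overlap (-3.65, SE 0.318, adjusted p = 5.63e-06). fat-5, the palmitoyl desaturase, whose span overlaps twk-42 and W06D12.8, fell by 0.51 (adjusted p = 0.000407), from 685, 736 and 877 to 543, 537 and 530 CPM. fat-6 fell by 0.27, which held in 4 of 6 fits. fat-6 and fat-7 are close paralogs, and reads matching both may have been split between them. nhr-49, a nuclear receptor that drives desaturases and oxidation genes, fell by 0.40 (adjusted p = 0.00297), from 89.99, 98.1 and 80.2 to 72.2, 65.2 and 65.5 CPM.

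Of 50 oxidation and lipase genes, 8 rose and 11 fell, 13 of the 19 in all 6 fits. acs-2, an acyl-CoA synthetase, stood at 16.21, 16.7 and 15.8 CPM without and at 48.6, 45.4 and 43.3 CPM with atp-2 RNAi (1.49, SE 0.116, adjusted p = 5.06e-08). acdh-2, an acyl-CoA dehydrogenase, rose by 1.98 (adjusted p = 3.11e-05), from 2.23, 3.65 and 1.69 to 8.17, 11.1 and 11.4 CPM. cpt-3, of the carnitine palmitoyltransferase family, went the other way, from 23.97, 25.7 and 11.1 to 5.92, 7.30 and 7.78 CPM (-1.54, adjusted p = 0.00496). The fasting-induced lipase gene fil-2 (-1.87), ech-1.1 (-1.24) and cpt-1 (-0.47) fell with it, and the thiolase kat-1 rose by 0.49. ech-9 rose by 0.91 here and fell in the control libraries (-1.08), with a called difference (adjusted p = 7.3e-08).

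UDP-glucuronosyltransferases, which conjugate foreign compounds and metabolites with sugars, rose in 18 of 57 members and fell in 3, and 9 of the 18 and all 3 held in all 6 fits. ugt-62 stood at 54.2, 55.5 and 55.6 CPM without and at 141.5, 146 and 134 CPM with atp-2 RNAi (1.35, SE 0.0746, adjusted p = 5.35e-10). ugt-31 stood at 16.8, 14.6 and 12.76 CPM without and at 35.6, 39.5 and 33.2 CPM with atp-2 RNAi (1.29, adjusted p = 1.81e-06), whereas it fell by 2.01 in the control libraries, a called difference of 3.298. ugt-4 fell from 9.75, 10.9 and 6.12 to 3.79, 3.13 and 3.89 CPM (-1.31, adjusted p = 0.000469). By the test of the difference, 16 of the 57 responded higher than in the control libraries and 11 lower.

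Cytochrome P450 genes, whose enzymes oxidise lipids and foreign compounds, fell in 10 of 60 members and rose in 5, with a median of -0.22. cyp-13A12 stood at 9.16, 6.75 and 5.34 CPM without and at 3.55, 2.48 and 3.67 CPM with atp-2 RNAi (-1.12, adjusted p = 0.00632). cyp-34A9, which overlaps B0213.24, fell by 0.92 (28.2, 28.3 and 16.8 to 13.2, 12.25 and 13.4 CPM) and cyp-42A1 by 0.78 (12.335, 11.8 and 8.86 to 6.04, 6.26 and 6.91 CPM). None of these 3 was called in the control libraries, where their changes were -0.04, -0.24 and -0.05, and the difference was called for cyp-13A12 and cyp-42A1. cyp-14A1 (1.08) held its rise in all 6 fits.

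Glutathione S-transferases rose in 3 of 39 and fell in 1. gst-13 rose by 0.58 (adjusted p = 0.000843), from 61.2, 50.4 and 72.7 to 92.7, 91.6 and 89.9 CPM, and gst-9, which overlaps msp-33, by 0.55 (adjusted p = 0.00771). gst-4, a reporter gene of oxidative stress that overlaps dhs-12, stood at 34.7, 37.8 and 44.9 CPM without and at 51.04, 54.1 and 46.9 CPM with atp-2 RNAi (0.37, adjusted p = 0.0157), and was called in 2 of the 6 fits, those without replicate 3 of either group (adjusted p = 0.000132 and 0.0199). Antioxidant genes rose in 4 of 35 and fell in 5, and without replicate 3 labelled prp-19 RNAi 8 rose and 5 fell. trx-2, the mitochondrial thioredoxin, which overlaps asps-1, rose by 0.42 (adjusted p = 0.003), from 27.8, 28.3 and 26.96 to 35.4, 41.5 and 34.6 CPM. nnt-1, the nicotinamide nucleotide transhydrogenase, which overlaps C15H9.9, fell by 0.67 (adjusted p = 0.00617), from 21.5, 23.2 and 29.2 to 19.2, 14.5 and 12.64 CPM. glrx-22 (-0.44) held in 2 of the 6 fits. Of 35 iron and metal genes 2 rose and 1 fell, the metallothionein mtl-2 (-0.54, adjusted p = 0.00159), from 36.8, 35.8 and 35.3 to 22.7, 26.3 and 25.4 CPM. cua-1, a copper-transporting ATPase gene, rose by 0.24 and held in 2 of the 6. Without replicate 3 labelled prp-19 RNAi 3 of the 35 rose and 5 fell.

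In the list of endoplasmic reticulum chaperones and stress genes, 1 of 30 was called. This was hsp-4, the BiP chaperone, at 136, 147 and 158 CPM without and at 214, 214 and 209 CPM with atp-2 RNAi (0.53, SE 0.0713, adjusted p = 6.35e-05). It fell in the control libraries (-0.59), and the difference was called.

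Calls among heat shock genes depended on replicate 3. With all libraries 1 of 36 was called: sip-1, a small heat shock protein gene overlapping F43D9.8, at 3.99, 3.22 and 4.56 CPM without and at 5.80, 7.95 and 6.59 CPM with atp-2 RNAi (0.79, adjusted p = 0.0115). That call was lost without replicate 2 of either group (adjusted p = 0.0763 and 0.0694). Without replicate 3 labelled prp-19 RNAi, 15 of the 36 were higher and 1 was lower. hsp-70, whose span overlaps uggt-2, stood at 26.6, 25.6 and 137 CPM without and at 71.4, 56.6 and 54.7 CPM with atp-2 RNAi. Replicate 3 was above every library with atp-2 RNAi and its partners were below them all, so the change was -0.04 with all libraries (adjusted p = 0.985) and 1.24 without replicate 3 (adjusted p = 2.38e-09). hsp-16.2 had the same order, 17.5, 16.6 and 59.9 CPM against 38.7, 30.5 and 30.9 CPM (0.12, adjusted p = 0.917; 0.98 without replicate 3). So did hsp-16.41, at 18.2, 13.9 and 56.3 CPM against 38.4, 37.4 and 31.2 CPM, and F44E5.4, at 3.64, 3.002 and 41.4 CPM against 11.8, 10.04 and 9.18 CPM. Members of the hsp-16 family and F44E5.4 have near-identical copies, so their reads may be shared.

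Other genes of wide spread between the 3 libraries labelled prp-19 RNAi are given as a description, since none was called with all libraries. C49G7.7 stood at 118, 133 and 9.38 CPM without and at 34.5, 33.9 and 30.03 CPM with atp-2 RNAi. F33H12.7 stood at 45.7, 59.4 and 6.12 CPM without and at 12.91, 13.4 and 11.99 CPM with atp-2 RNAi. In both genes, as in srr-6 (35.0, 41.3 and 5.99 against 10.8, 9.12 and 10.5 CPM) and F22H10.2 (34.9, 39.5 and 8.07 against 23.1, 20.3 and 21.7 CPM), replicate 3 lay below every library with atp-2 RNAi and its partners above them. T24E12.5 stood at 26.2, 31.9 and 5.47 CPM against 6.16, 6.26 and 5.51 CPM, with replicate 3 just below the other group. col-77, a collagen gene, spread without regard to replicate 3, at 38.6, 7.18 and 20.97 CPM against 27.5, 17.3 and 12.5 CPM.

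Vitellogenins showed the same dependence. vit-2 stood at 16420, 26590 and 56480 CPM without and at 37710, 36920 and 42330 CPM with atp-2 RNAi, so the libraries with atp-2 RNAi lay inside the range of those without. Its change was 0.23 (adjusted p = 0.769), and 0.87 without replicate 3 (adjusted p = 0.0179). None of the 6 was called with all libraries, 3 rose without replicate 3, and 4 fell in the control libraries with a called difference for 4. Several vitellogenins are close copies, so their values may share reads.

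Immune and pathogen-linked families moved in both directions. C-type lectins, sugar-binding secreted proteins, rose in 16 of 95 and fell in 9, and 7 and 8 of these held in all 6 fits. clec-4 stood at 41.9, 39.8 and 29.6 CPM without and at 70.6, 66.5 and 69.3 CPM with atp-2 RNAi (0.89, SE 0.118, adjusted p = 8.36e-05). clec-223 fell from 13.3, 21.1 and 22.7 to 9.24, 9.91 and 8.64 CPM (-1.04, adjusted p = 0.000387). clec-218 rose by 0.87 but was called in 1 of the 6 fits, the one without replicate 3 labelled prp-19 RNAi. In the control libraries 15 members rose and 39 fell, and the test of the difference was called higher for 33 and lower for 9.

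Lysozymes and other immune effectors fell in 10 of 75 and rose in 5. spp-4, a saposin-like gene, fell from 11.16, 8.04 and 11.1 to 5.09, 5.87 and 6.05 CPM (-0.82, adjusted p = 0.00211). irg-1, a gene of the response to Pseudomonas, rose from 9.28, 8.26 and 5.99 to 12.198, 15.9 and 13.8 CPM (0.82, adjusted p = 0.00389). fipr-22 stood at 56.6, 69.2 and 34.5 CPM without and 29.2, 31.7 and 30.2 CPM with atp-2 RNAi (-0.82), and was called in the fit without replicate 3 and in none of the other 5. The lysozyme gene ilys-5 (-0.78) and irg-3 (-0.74) fell here and fell further in the control libraries (-3.41 and -2.21), with called differences.

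In the pals family, some of whose members answer to intracellular pathogens, 2 of 21 rose and 2 fell. pals-23 and pals-24 are neighbours on chromosome III (124778 to 127971 and 120435 to 124690). pals-23 rose from 40.9, 47.4 and 56.1 to 75.4, 75.3 and 74.4 CPM (0.64, adjusted p = 0.000309), and pals-24 from 57.3, 62.6 and 65.4 to 84.6, 88.4 and 78.9 CPM (0.44, adjusted p = 0.00128). Both fell in the control libraries (-0.46 and -0.60), and the differences were called. pals-14 fell from 23.5, 17.3 and 12.5 to 11.01, 7.95 and 7.13 CPM (-1.04, adjusted p = 0.00444). F-box genes had 6 of 109 higher and 5 lower, near the shares over all genes, and 8 higher and 13 lower without replicate 3 labelled prp-19 RNAi. fbxa-216 rose by 1.02 (adjusted p = 0.00222) and fbxa-135 fell by 1.05 (adjusted p = 0.00171). fbxa-128 rose by 0.67 in a call that held in 3 of the 6 fits, and fell in the control libraries (-0.95).

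Among 177 nuclear hormone receptor genes 7 rose and 4 fell, and 5 and 2 of these held in all 6 fits. The share called, 6.21%, was below the 9.77% over all genes. Of the called members, nhr-68, nhr-114 and nhr-49 are also in lists described above. Beside nhr-68, nhr-210 rose from 3.41, 5.47 and 5.21 to 11.01, 11.1 and 11.8 CPM (1.26, adjusted p = 4.05e-05) and nhr-115 from 3.29, 4.29 and 3.52 to 8.29, 8.99 and 7.67 CPM (1.16, adjusted p = 0.000484). In insulin signalling 2 of 29 were called (6.9%), also below the share over all genes. The kinase gene akt-1, which overlaps rop-1, fell from 108, 127 and 84.9 to 71.3, 68.6 and 65.5 CPM (-0.64, adjusted p = 0.00113). akt-2 fell from 65.9, 80.3 and 48.6 to 41.2, 39.1 and 36.1 CPM (-0.75, adjusted p = 0.0139) and held in 3 of the 6 fits. For both, replicate 3 was the library of its group closest to those with atp-2 RNAi.

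Of 45 transthyretin-related genes 6 fell and 1 rose. ttr-42, which overlaps H01M10.1, fell from 34.2, 32.5 and 33.99 to 9.83, 10.2 and 10.9 CPM (-1.70, SE 0.116, adjusted p = 9.34e-09), and ttr-37 from 19.7, 23.2 and 13.2 to 7.82, 10.2 and 7.45 CPM (-1.16, adjusted p = 0.000586). ttr-14, whose span overlaps vap-2, rose from 94.1, 83.6 and 82.0 to 332, 290 and 241 CPM (1.73, adjusted p = 1.09e-08). Collagens rose in 11 of 129 and fell in 1, col-135, from 20.1, 26.8 and 19.3 to 4.97, 5.34 and 4.75 CPM (-2.14, SE 0.145, adjusted p = 8.63e-09). Of the 11 that rose 2 held in all 6 fits; dpy-2 (0.65) held in 4 and bli-1 (1.35), which overlaps dph-2, in 2. Without replicate 2 labelled prp-19 RNAi 2 collagens rose, and without replicate 3 24 did.

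Among the lowest changes were 3 neighbouring genes on chromosome X that no list held. ZK813.2 (3443826 to 3444191) stood at 59.7, 56.9 and 57.6 CPM without and at 12.198, 14.9 and 16.096 CPM with atp-2 RNAi (-2.01). ZK813.7 (3444814 to 3445197) stood at 500.5, 506.7 and 501 CPM without and at 130, 151.6 and 150 CPM with atp-2 RNAi (-1.80, SE 0.0777, adjusted p = 4.43e-11). ZK813.1 (3446311 to 3446875) stood at 362, 387 and 358 CPM without and at 87.5, 114.2 and 113.97 CPM with atp-2 RNAi (-1.81). Replicate 3 lay among its partners in all 3, and the fall exceeded that of the control libraries by the test of the difference for ZK813.7 (-0.17 there) and ZK813.1 (-0.60 there), while ZK813.2 fell in both (-1.74 there).

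ule-5 fell from 520, 535 and 543 to 121, 148 and 156 CPM (-1.91, SE 0.091, adjusted p = 1.08e-10), and Y57G11B.5 from 208, 205 and 208 to 36.002, 47.8 and 45.8 CPM (-2.26, adjusted p = 3.24e-09). Both fell further than in the control libraries, with called differences of -0.70 and -0.91. C17G1.2 (-1.89) and F55B11.3 (-1.73) fell in all 6 fits as well. jmjd-3.3, a gene of the JmjC histone demethylase family, fell from 26.4, 33.5 and 11.199 to 2.96, 3.91 and 4.21 CPM (-2.69, SE 0.395, adjusted p = 0.00212), and the linker histone gene hil-1 from 32.2, 30.9 and 23.4 to 17.4, 18.4 and 18.3 CPM (-0.68, adjusted p = 0.000345). hil-1 was the 1 of 16 histone genes called.

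Among the highest changes outside the lists, F58G6.9 rose from 3.52, 3.002 and 3.39 to 21.3, 23.5 and 19.2 CPM (2.69, SE 0.138, adjusted p = 2.64e-10) and stood at 2.75 in the control libraries, a difference of -0.06 that was not called (adjusted p = 0.869). B0205.13 rose from 6.58, 7.397 and 4.82 to 33.5, 32.7 and 28.3 CPM (2.31), less than the 5.25 of the control libraries by the test of the difference. C23H5.8 rose from 7.99, 9.43 and 26.6 to 71.1, 73.8 and 71.4 CPM (2.32, adjusted p = 0.00379) and T05E12.6 from 21.03, 26.2 and 45.1 to 118, 109 and 117 CPM (1.91, adjusted p = 0.000407). In these 2 genes replicate 3 lay between the groups. slc-17.4, a solute carrier gene, rose from 22.3, 21.6 and 20.97 to 67.6, 63.7 and 54.5 CPM (1.52), and C36E6.8 by 1.86.

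Hedgehog-related and patched-related genes fell in 4 of 54, among them ptr-23 (-0.56) and ptr-11 (-0.45) in all 6 fits and ptr-13 (-0.33) in 4. Neuropeptide genes had 1 of 101 higher and 1 lower, nlp-28 (-0.46). Proteasome genes fell in 2 of 35, rpn-6.1 (-0.27) and rpn-13 (-0.25), in 2 and 1 of the 6 fits. Autophagy genes had 13.8% called, against 9.77% over all genes, and rose in 1 of 29, lmp-2 (0.50, adjusted p = 0.00124), and fell in 3, among them lgg-1 (-0.28) and bec-1 (-0.35), which held in 5 and 3 fits. In the vacuolar ATPase and lysosome list 3 of 30 rose and 3 fell (20%). vha-5, which overlaps F35H10.10, fell by 0.39 in all 6 fits, and vha-6 (0.50) and cpz-2 (0.35) held in 1 and 3. Germline genes had 1 of 32 higher and 1 lower, with prg-1 (0.33), which overlaps D2030.12, holding in 3 fits. In the list of sperm and nematode-specific peptides 1 of 39 rose, nspe-8 (1.34), and 3 fell, among them nspc-9 (-0.59) in 5 fits. RNAi genes had nrde-2 higher (0.28) and ppw-1 lower (-0.29) of 38, each in 2 fits. The abu and pqn genes fell in 3 of 48, with pqn-92 (-0.38) in all 6 fits and pqn-48 (-0.59), which overlaps rpn-11, in 5.

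Set beside the control pair, the list medians on prp-19 bacteria were smaller for most mitochondrial lists. For chaperones and proteases they were 0.34 here and 1.06 in the control libraries, for import genes 0.25 and 0.85, for complexes I to IV 0.27 and 0.68 and for mitochondrial ribosomal proteins 0.15 and 0.66. Medians were closer for propionate breakdown (0.36 and 0.43), where the difference was called lower for 2 of 15 members, and for ATP synthase subunits (0.33 and 0.51), where it was called lower for 4 of 17. UDP-glucuronosyltransferases (0.22 and 0.06) and the folate list (0.18 and 0.06) had the higher median on prp-19 bacteria. Taken gene by gene, however, the median difference between partners was -0.00328 for UDP-glucuronosyltransferases, with 16 called higher and 11 lower. For the folate list it was 0.191, with 10 called higher and 3 lower. Without replicate 3 labelled prp-19 RNAi the medians of the 4 first lists were 0.33, 0.31, 0.31 and 0.22.

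**Figure D5:**
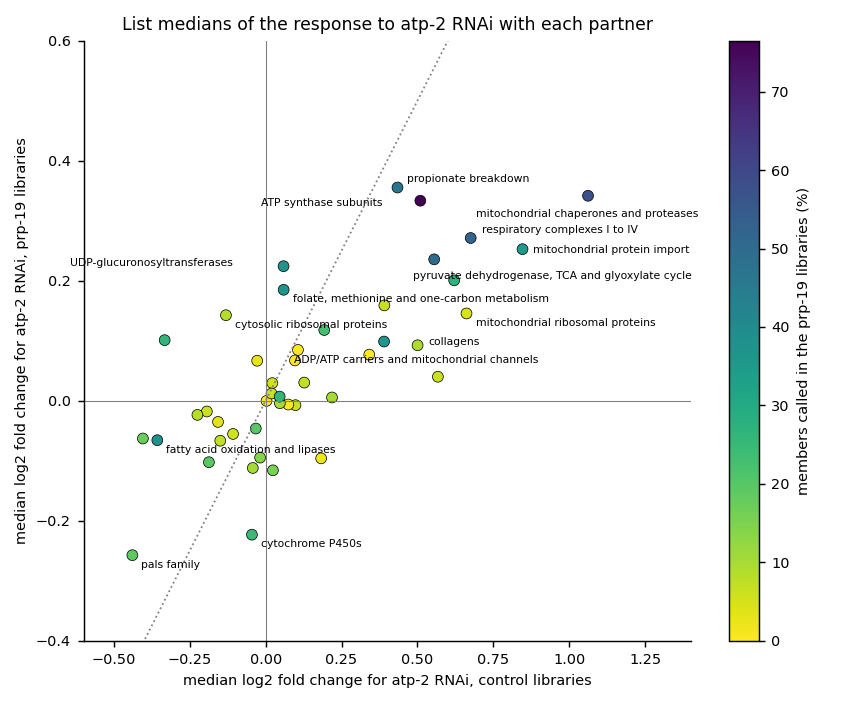
Each point is a gene list, with the median log2 fold change for atp-2 RNAi in the control libraries (x) and on prp-19 bacteria (y), coloured by the percentage of members called on prp-19 bacteria; the dotted line marks equal medians, and the vitellogenins (-2.06 and 0.18) are left out for scale. Most mitochondrial lists lie to the right of the line, such as chaperones and proteases at 1.06 and 0.34.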

How the data were processed

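The authors deposited raw read counts for 45132 genes, and the 12 columns were assigned to samples through their titles. The submitters' processing notes name STAR 2.7.5c, HISAT2 2.1.0, R 4.0.5, FastQC and DESeq2 without roles, and the build ce11/WBcel235. Which program counted reads, on which strand and with what rule for multiple matches is not given in the sources used here, so genes with overlapping spans are named with their partner. Counts were fitted with edgeR 4.0.16 in R 4.3.3: filterByExpr by group, TMM factors, robust quasi-likelihood with 1 coefficient per group over all 12 libraries (8 residual degrees of freedom), and the contrasts of atp-2 RNAi in each pair and their difference. The effect of voom (limma 3.58.1), DESeq2 1.42.0 and other alternatives is given at the end. The fit was tested on simulated data. Spread was measured on log2 CPM with a prior count of 2. The members, 46 gene lists and 8 marker lists were chosen with earlier results of these data known. The rule for named genes took prp-19 and atp-2, the 10 highest and 10 lowest called changes of at least 5 CPM without overlap, the 3 largest called changes per list, the 8 widest spreads and 9 stress genes. Other list members, pcca-1, pccb-1, mmcm-1, mce-1, mmab-1, vit-2, hsp-16.41 and F44E5.4 were named after their values were seen.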

Additional observations from a re-analysis of the deposited data

Results flagged for a closer look

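Named genes stand here where the response to atp-2 RNAi differed between libraries labelled prp-19 RNAi and control libraries, by edgeR's test of the difference (adjusted p under 0.05). Values are the log2 fold change in the former minus that in the latter. A value below 0 can mean a smaller rise or a larger fall, and the cause was not tested. Among genes of the ATP synthase, mitochondrial stress, import and respiration, the difference was above 0 for atp-2 (1.59) and below 0 for hsp-6 (-0.61), Y22D7AL.10 (-0.67), dnj-10 (-1.04), lonp-1 (-0.67), atfs-1 (-0.45), timm-23 (-1.195), tomm-70 (-0.54), Y69A2AR.18 (-0.58), sdha-2 (-0.97), ant-1.1 (-0.50), mfn-1 (-0.57), coq-5 (-0.51) and trx-2 (-0.74). Among genes of protein synthesis, the difference was above 0 for rpl-31 (0.45) and below 0 for mrps-14 (-1.34), mrpl-45 (-0.58), mrps-11 (-0.74) and lars-1 (-1.203). Among genes of carbon, lipid and one-carbon metabolism, the difference was above 0 for cts-1 (0.33), hxk-1 (0.99), fat-5 (0.89), folt-1 (0.49) and sams-1 (0.52) and below 0 for enol-1 (-0.26) and acs-2 (-1.40). Among genes of stress and detoxification, the difference was above 0 for hsp-4 (1.12), ugt-31 (3.298) and mtl-2 (0.53) and below 0 for sip-1 (-0.99), cyp-13A12 (-1.08), cyp-42A1 (-0.73), ugt-62 (-0.72) and ugt-4 (-1.47). Among genes of immune and pathogen-linked families, the difference was above 0 for clec-218 (2.42), spp-4 (0.67), pals-23 (1.11), pals-24 (1.04) and fbxa-128 (1.62) and below 0 for clec-4 (-1.18) and pals-14 (-1.46). Among genes of secreted and cuticle genes and genes in no list, the difference was above 0 for ttr-14 (0.70) and below 0 for B0205.13 (-2.94), ttr-42 (-0.97), ttr-37 (-1.26), col-135 (-2.01), ule-5 (-0.70), Y57G11B.5 (-0.91), ZK813.1 (-1.21), ZK813.7 (-1.63), F55B11.3 (-1.22) and F33H12.7 (-4.80). Among genes of signalling, small RNA, chromatin and the vacuolar ATPase, the difference was below 0 for akt-1 (-0.51), vha-5 (-0.43), prg-1 (-1.54), nrde-2 (-0.47) and hil-1 (-0.57). F33H12.7 was not called for atp-2 RNAi on prp-19 bacteria (-1.56, adjusted p = 0.171), and its replicate 3 lay far below its partners.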

How the results depend on the processing

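Of the 1256 calls, counts stayed within 1.5 times under RLE size factors (1249), DESeq2 (1030), a filter of 5 CPM (1179), no filter (1666), thinning to the smallest total (1170) and library totals (947). They moved to 1951 (1003 higher, 948 lower) with voom quality weights, 547 (275, 272) with the 6 libraries alone, 369 (166, 203) against a fold of 1.2 and 586 (294, 292) at an adjusted p under 0.01, and higher calls to 356 with library totals. Leaving out 1 library gave 696 to 2887 calls, 352 to 1559 higher and 344 to 1328 lower, and the fit without replicate 3 labelled prp-19 RNAi gave the highest counts. Of these settings, none gave a called gene the opposite direction. Differences from the control response, 2475, became 4017 with library totals, 1418 against a fold of 1.2, 1384 at an adjusted p under 0.01 and 1955 to 3583 without 1 library. The share of genes tested that were called in all 6 leave-one-out fits, 4.11%, became 1.138% with the 6 libraries alone. The median SD was 0.1899 without and 0.131 with atp-2 RNAi at a prior count of 0.5, and 0.1372 and 0.07942 in genes of at least 20 CPM.

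A replicate block gave 1138 calls over all 12 libraries and 366 (165 higher, 201 lower) with the 6 alone. Libraries of the same number had deviation correlations of -0.002441, -0.04035 and -0.01533, and not every library correlated best with its own number (0.134 between replicates 2 and 3), so the numbers were not taken as pairs.

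The balance of higher minus lower calls changed sign in some lists, and the cause was not tested. Fatty acid synthesis became 2 with voom and ranged from -5 to 4 without 1 library. Fatty acid oxidation became 1 with the 6 libraries alone, 2 with their replicate block and 2 against a fold of 1.2, and ranged from -4 to 1. The antioxidant list became 1 with DESeq2, the 6 libraries alone and an adjusted p under 0.01, and 2 with voom and no filter, and ranged from -1 to 3. The iron list became -1 with voom (range -2 to 1), collagens -1 against a fold of 1.2, and C-type lectins -1 with the replicate block of 6 and -2 against that fold. F-box genes became -3 with library totals and -1 with DESeq2 (range -7 to 3). Autophagy became 1 with the 6 libraries alone, their replicate block and an adjusted p under 0.01 (range -5 to 1). The cts-1 difference was -0.006794 with library totals. Without 1 library the hsp-70 change ranged from -0.4165 to 1.235 and its difference from -0.6178 to 1.038, both highest without replicate 3 labelled prp-19 RNAi.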
